A study of Arabidopsis thaliana with 24 samples.

Results

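The GH3 genes encode acyl amido synthetases, and the members of the family that act on auxin join the auxin indole-3-acetic acid (IAA) to amino acids. Conjugation takes free IAA out of the active pool, so these enzymes are known as a feedback on the hormone. Several GH3 genes are classic early auxin-induced genes. In the textbook pathway auxin causes the breakdown of Aux/IAA repressors, which frees auxin response factors (ARFs) to activate such genes.

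The genes described here are GH3.3 (AT2G23170), WES1 (AT4G27260, also called GH3.5), GH3.1 (AT2G14960) and GH3.17 (AT1G28130). They were taken by name from the array annotation, which pairs 1 probe set with each, so that 4 of the 13350 genes with a probe set of their own in the table were followed, all 4 above the floor on at least 1 array. GH3.3, WES1 and GH3.17 are known as IAA-amido synthetases, and GH3.17 is known for a preference for glutamate. GH3.1 belongs to the auxin-inducible branch of the family. No sequence of these genes was used here.

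Total RNA of whole Arabidopsis thaliana seedlings was hybridised to oligonucleotide arrays. The genotypes were nph4-1, a mutant of ARF7, arf19-1, a mutant of ARF19, the nph4-1 arf19-1 double mutant and the wild type Columbia (Col), which is also the background of the mutants. Seedlings of each genotype received 5 µM IAA or the ethanol solvent alone (control) for 2 h at 24 °C, after growth for 7 days in shaken liquid medium that held 1.5% sucrose, with days of 16 h light and nights of 8 h. This gives 8 groups of 3 arrays, 24 in all, and each mutation is represented by 1 allele. Each single mutant keeps the other of the 2 ARF genes. Whether a group's 3 arrays stem from different cultures is not in the labels, and the p-values then measure only the spread between these samples, which may be technical.

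All signals below are log2 values per probe set unless called linear, and 5.64, which is 50 in linear units, is the floor, the lowest signal on every array. The array medians lay between 6.645 and 6.758, so the arrays had nearly the same overall brightness. Array weights estimated by limma, which are low where an array departs from its group, were lowest for nph4-1 IAA 1 (0.14) and Col control 3 (0.19), against 0.36 to 7.9 for the others. The main results on nph4-1 with IAA and on the Col controls are also given without both arrays. The labels say that the tables of Col control 2 and 3 replaced earlier ones. Among the tissue markers, the shoot gene RCA, which encodes Rubisco activase, had group means of 12.61 to 12.79, and the root gene PYK10 of 12.7 to 12.99. The root peroxidase AT5G17820, the other root marker tested, was lower in the double mutant than in Col, by -0.52 with IAA (limma adjusted p = 0.022) and by -0.48 without (adjusted p = 0.047). The part of this difference in the results on the double mutant was not tested. The transcripts of ARF7 and ARF19 themselves were not analysed here, since the annotation pairs neither with a probe set. In bulk seedlings, fewer cells of a type and less RNA per cell cannot be told apart.

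GH3.3, WES1 and GH3.1 rose within 2 h of IAA in wild-type seedlings, and GH3.17 did not pass the test. The response was smaller than in Col for GH3.3 in nph4-1 and for GH3.3 and WES1 in the double mutant, where GH3.3 alone still passed. GH3.1 lay at the floor in all controls, so that only its signal under IAA was compared, and this was called lower than in Col in every mutant. For arf19-1 that call was not firm, since it ended in 11 of the 24 omissions of 1 array. In arf19-1 the same 3 genes rose, and neither GH3.3 nor WES1 differed from Col in response by the test. Without IAA, GH3.3 alone had called differences from Col, being 2.03-fold higher in nph4-1 and 6.02-fold higher in the double mutant. GH3.1 could show none there, and GH3.17 in the double mutant lay near the threshold (0.63, limma adjusted p = 0.056).

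**Figure D1:**
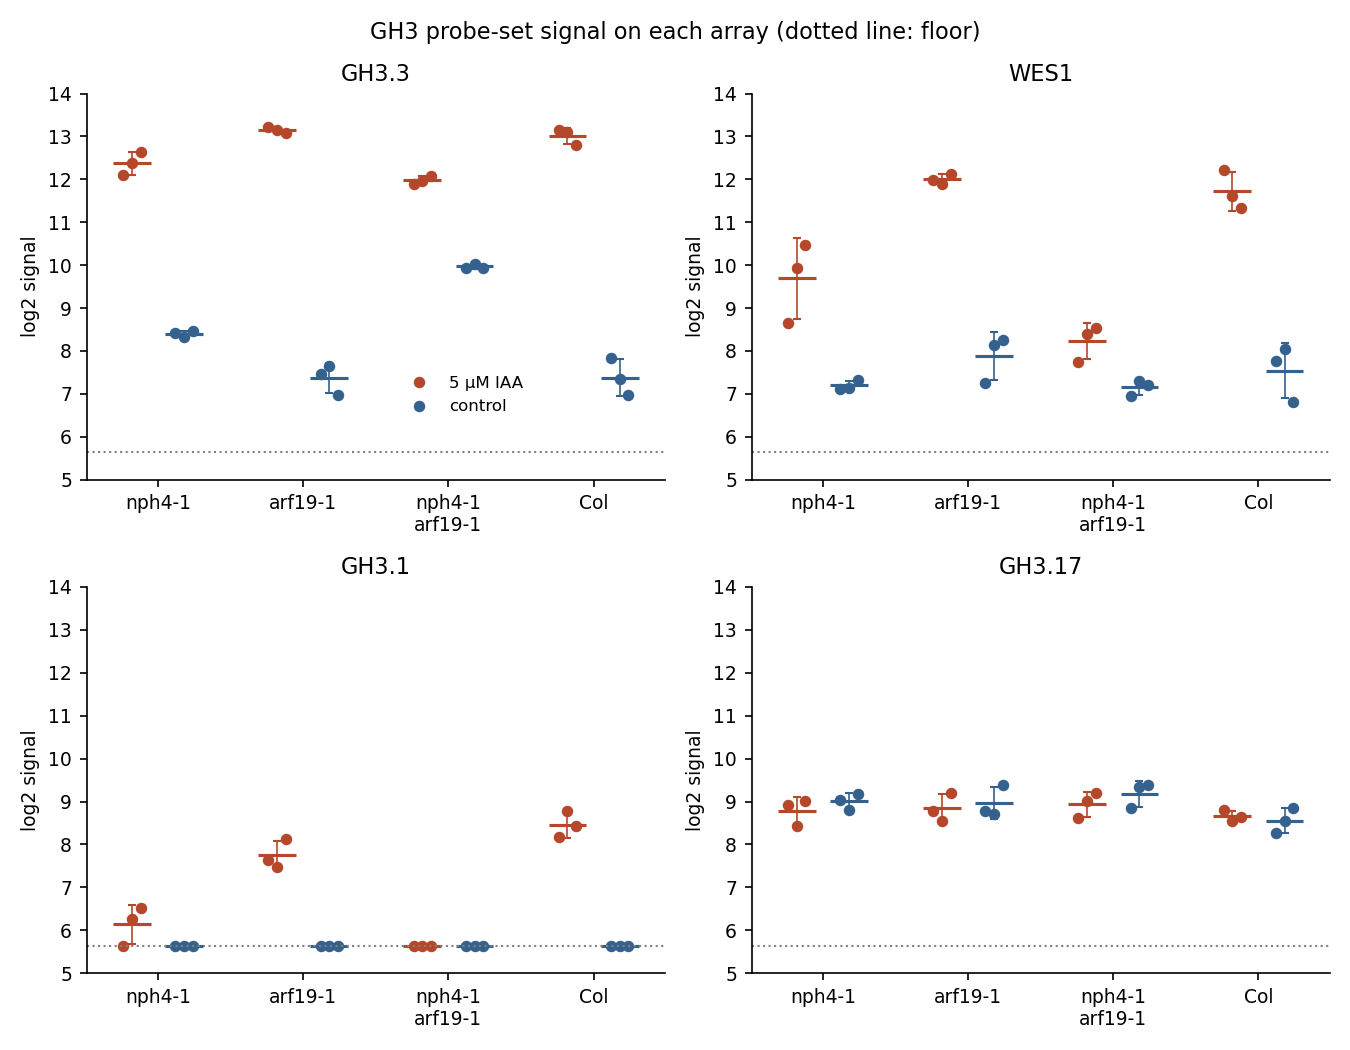
Log2 signal (y axis) of the 4 GH3 probe sets on each of the 24 arrays, by genotype (x axis), with IAA (red) left of control (blue). Points are single arrays, horizontal bars are means and whiskers are SD (n = 3), and the dotted line is the floor of 5.64. The GH3.3 controls of nph4-1 arf19-1 stand at 9.94 to 10.03, above all other controls of that gene.

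The probe set of GH3.3 was above the floor on all arrays. In nph4-1 its signal was 12.1, 12.38 and 12.63 with IAA, against 8.42, 8.33 and 8.46 in the controls. In arf19-1 it was 13.22, 13.14 and 13.07 with IAA, against 7.47, 7.65 and 6.97 in the controls. With and without IAA, the arrays of each of these 2 genotypes lay several log2 units apart. In the double mutant the signal was 11.88, 11.97 and 12.08 with IAA, against 9.94, 10.03 and 9.94 in the controls. In Col it was 13.14, 13.1 and 12.8 with IAA, against 7.84, 7.34 and 6.97 in the controls. The gap between treated and control arrays was therefore narrowest in the double mutant, where the controls were highest and the treated arrays lowest.

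The log2 rise of GH3.3 with IAA was 3.97 in nph4-1 (SE 0.18, limma adjusted p = 4.8e-12), 5.78 in arf19-1 (adjusted p = 2e-15), 2.00 in the double mutant (adjusted p = 4e-06) and 5.63 in Col (adjusted p = 1.5e-15). These are rises of 15.6-fold, 55.0-fold, 4.01-fold and 49.6-fold. In each of the 4 genotypes this was the highest log2 change of all 15757 probe sets tested, so GH3.3 stayed in first place even where few other probe sets rose. Only 0.336% of the tested probe sets rose with IAA in the double mutant, against 1.72% in nph4-1, 4.89% in arf19-1 and 6.33% in Col.

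Set against Col, the GH3.3 response was smaller by a log2 difference of -1.66 in nph4-1 (95% interval -2.18 to -1.15, limma adjusted p = 0.00025) and of -3.63 in the double mutant (-4.15 to -3.11, adjusted p = 2.8e-09). In arf19-1 the difference was 0.15 (-0.37 to 0.67, adjusted p = 1), an interval that leaves room for a response up to 0.37 smaller. The double mutant also responded less than nph4-1 (-1.96, SE 0.25, adjusted p = 0.00018) and less than arf19-1 (-3.78, adjusted p = 1.9e-09). The arf19-1 mutation therefore went with a smaller GH3.3 response where ARF7 was also mutated, and with no called difference where ARF7 was intact. The test of that contrast itself, in which the responses of both single mutants are subtracted from the sum of those of the double mutant and Col, gave -2.11 (SE 0.35, adjusted p = 0.01), which 0.0825% of the tested probe sets passed in that direction. Without nph4-1 IAA 1 and Col control 3 the differences from Col were -1.32 in nph4-1 (adjusted p = 0.00127) and -3.42 in the double mutant (adjusted p = 1.26e-09), and the non-additivity was -2.45 (adjusted p = 0.000324). With all arrays kept, the double mutant's controls stood 1.57 above those of nph4-1 and 2.59 above those of Col. With IAA it averaged 11.98, against 12.37 in nph4-1 and 13.01 in Col. On the log2 scale the larger part of its difference in response from both thus lay in the controls. In linear units the larger part lay in the IAA arrays. These averaged 4036.7 in the double mutant, 5360 in nph4-1 and 8317 in Col, against 1004.8, 339.1 and 172.1 in the controls.

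The log2 response of GH3.3 was 70.5% of that of Col in nph4-1 (SE 3.8), 103% in arf19-1 (SE 4.5) and 35.6% in the double mutant (SE 3.3). In linear units the signal of GH3.3 rose by 5021 in nph4-1, by 8882.2 in arf19-1 and by 3031.9 in the double mutant, against 8144.9 in Col. The linear rises of nph4-1 and the double mutant were 61.6% and 37.2% of that of Col, close to the log2 shares. The signal lay near the top of the arrays, which limits how far rises in Col and arf19-1 can be told apart. With IAA it lay 0.75 to 1.39 log2 units below the highest signal of its array in nph4-1, 0.22 to 0.29 below it in arf19-1 and 1.29 to 1.38 below it in the double mutant, against 0.17 to 0.53 in Col. Leaving out nph4-1 IAA 1 and Col control 3, the log2 share was 75.6% in nph4-1 (SE 3.7), 107% in arf19-1 (SE 4.1) and 37.0% in the double mutant (SE 2.8).

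**Figure D2:**
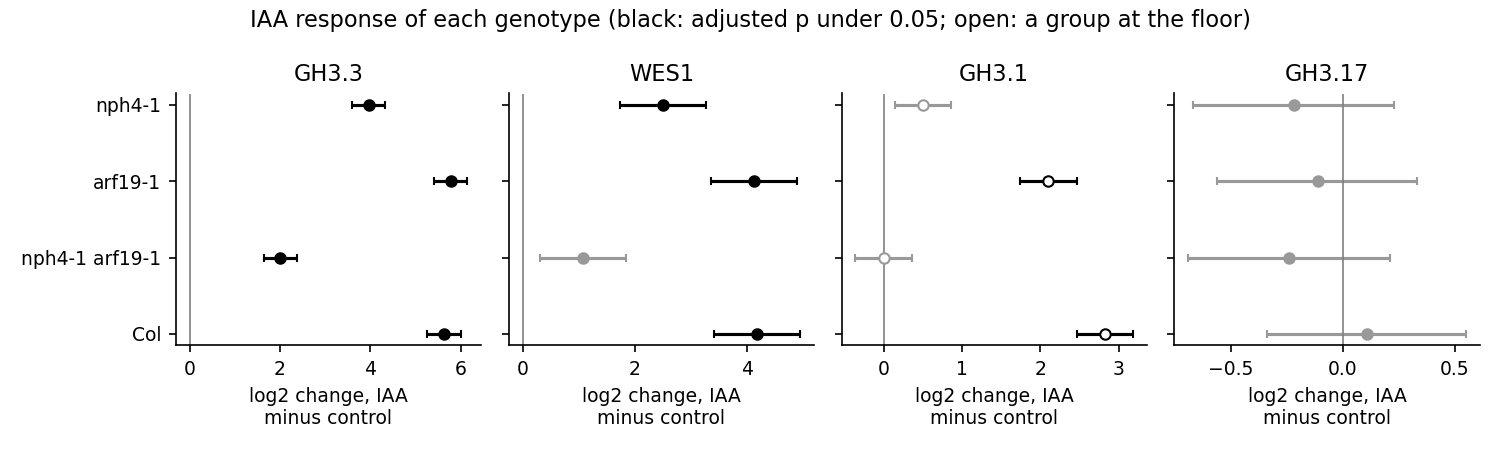
IAA response, as the log2 change of IAA minus control (x axis, a scale of its own in each panel), for each gene (panels) in each genotype (rows), with 95% intervals from limma. Black marks an adjusted p under 0.05, grey marks the rest, and open circles mark genes with at least 1 group at the floor on all arrays. The GH3.3 response is called in all 4 genotypes and is 2.00 in nph4-1 arf19-1 and 5.63 in Col.

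Without IAA, GH3.3 was the 1 member of the 4 with a called difference between genotypes. GH3.1 was at the floor there, where no difference can be seen, and GH3.17 in the double mutant lay near the threshold. The control signal of GH3.3 averaged 8.40 in nph4-1 (SD 0.07), 7.36 in arf19-1 (SD 0.35), 9.97 in the double mutant (SD 0.05) and 7.38 in Col (SD 0.44). The log2 difference from Col was 1.02 in nph4-1 (SE 0.18, limma adjusted p = 0.0041) and 2.59 in the double mutant (adjusted p = 5.4e-09), while arf19-1 had -0.02 (95% interval -0.39 to 0.35). Between arf19-1 and Col without IAA 0.819% of tested probe sets were called in either direction. Of the tested probe sets 1.21% were higher in nph4-1 than in Col without IAA and 7.03% in the double mutant, where GH3.3 ranked 2 of 15757 from the highest. The double mutant also stood 1.57 above nph4-1 (adjusted p = 1.5e-05) and 2.61 above arf19-1 (adjusted p = 4.5e-09), directions in which 0.882% and 3.15% of probe sets were called. In linear units the controls averaged 339.1 ± 15.6 in nph4-1, 167.7 ± 38.4 in arf19-1 and 1004.8 ± 37.3 in the double mutant, against 172.1 ± 52.9 in Col (SD, n = 3 each). The call of nph4-1 against Col ended in a fit of those 6 arrays alone (adjusted p = 0.103). Without nph4-1 IAA 1 and Col control 3, the lowest Col control, the differences from Col were 0.81 in nph4-1 (adjusted p = 0.0133) and 2.38 in the double mutant (adjusted p = 1.07e-08).

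With IAA the order of the genotypes was reversed. GH3.3 was lower than in Col by a log2 difference of -0.64 in nph4-1 (SE 0.18, limma adjusted p = 0.016) and of -1.04 in the double mutant (adjusted p = 0.00016), and arf19-1 had 0.13 (95% interval -0.24 to 0.5). The nph4-1 call ended without Col IAA 1 (adjusted p = 0.0611), without Col IAA 2 (0.0625) and without nph4-1 IAA 1 (0.0888, log2 difference -0.51), and held without both nph4-1 IAA 1 and Col control 3 (-0.51, adjusted p = 0.0362). Signals lower than Col with IAA were called for 5.68% of tested probe sets in nph4-1 and 9.37% in the double mutant. Over all 8 groups GH3.3 was highest in arf19-1 with IAA, followed by Col, nph4-1 and the double mutant with IAA, then by the controls of the double mutant, nph4-1, Col and arf19-1. In that order the arrays overlapped between neighbours at both ends only, for arf19-1 and Col with IAA and for the Col and arf19-1 controls.

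WES1 rose strongly in the wild type and arf19-1 and to a lower level in nph4-1. In nph4-1 its signal was 8.66, 9.94 and 10.48 with IAA, against 7.12, 7.14 and 7.33 in the controls. In arf19-1 it was 11.99, 11.88 and 12.12 with IAA, against 7.25, 8.14 and 8.25 in the controls. The nph4-1 IAA arrays were the most scattered of the 8 groups, and the lowest of them was nph4-1 IAA 1. In the double mutant the signal was 7.74, 8.4 and 8.53 with IAA, against 6.96, 7.29 and 7.21 in the controls. In Col it was 12.22, 11.61 and 11.33 with IAA, against 7.77, 8.04 and 6.82 in the controls. Treated and control arrays did not overlap in any genotype, but in the double mutant they lay only a fraction of a log2 unit apart at the nearest.

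The log2 response of WES1 was 2.50 in nph4-1 (SE 0.37, limma adjusted p = 2e-04), 4.12 in arf19-1 (adjusted p = 4.7e-08) and 4.18 in Col (adjusted p = 3e-08). In the double mutant it was 1.07 (95% interval 0.31 to 1.84, adjusted p = 0.54) and did not pass. Among all tested probe sets the log2 change of WES1 ranked 4 in nph4-1, 3 in arf19-1, 14 in the double mutant and 5 in Col, counted from the highest. With the 6 nph4-1 arrays fitted by themselves the nph4-1 response did not pass (adjusted p = 0.0522). Without nph4-1 IAA 1 and Col control 3 the response was 3.02 in nph4-1 (adjusted p = 7.19e-07) and 3.82 in Col (adjusted p = 5.08e-09).

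Against Col, the WES1 response of the double mutant was smaller by a log2 difference of -3.11 (SE 0.52, limma adjusted p = 0.00052), and so was it against arf19-1 (-3.05, adjusted p = 0.00075). The nph4-1 response differed from that of Col by -1.68 (95% interval -2.76 to -0.60, adjusted p = 0.1) and the double mutant from nph4-1 by -1.43 (-2.51 to -0.35, adjusted p = 0.87), neither of which passed. Without both nph4-1 IAA 1 and Col control 3 the first was -0.8 (adjusted p = 0.541) and the second -1.94 (adjusted p = 0.0175), so the value for nph4-1 against Col rests on these arrays. The first passed with arrays of the same number paired within each genotype (adjusted p = 0.0273) and without nph4-1 IAA 3 (-2.07, adjusted p = 0.0246). The non-additivity of WES1 was -1.37 (-2.9 to 0.16), an interval that holds both 0 and the value of GH3.3.

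The share of the wild-type response that WES1 kept depended on the scale. On the log2 scale nph4-1 kept 59.8% (SE 10) and the double mutant 25.6% (SE 9.1) of the response of Col. In linear units the rise was 791.6 in nph4-1 and 164.3 in the double mutant, against 3295 in Col, shares of 24.0% and 4.99%. For arf19-1 the shares were 98.6% on the log2 scale (SE 12) and 117% in linear units. Without nph4-1 IAA 1 and Col control 3 nph4-1 kept 79.0% on the log2 scale (SE 9.3) and 32.6% in linear units, and the double mutant 28.1% (SE 6.8) and 5.05%. For GH3.3, whose control signal was higher in nph4-1 and the double mutant than in Col, the shares on the 2 scales lay closer to each other.

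Unlike GH3.3, WES1 showed no called difference between genotypes without IAA. The log2 difference from Col was -0.35 in nph4-1 (95% interval -1.11 to 0.42), 0.33 in arf19-1 (-0.43 to 1.1) and -0.39 in the double mutant (-1.15 to 0.37). The upper bound of the last interval is below the lower bound of the same difference for GH3.3, which was 2.22. With IAA, WES1 was lower than in Col by -2.03 in nph4-1 (limma adjusted p = 5e-04) and by -3.5 in the double mutant (adjusted p = 3.2e-07), and arf19-1 had 0.28 (-0.49 to 1.04). The nph4-1 value was -1.51 without nph4-1 IAA 1 and Col control 3 (adjusted p = 0.000781).

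**Figure D3:**
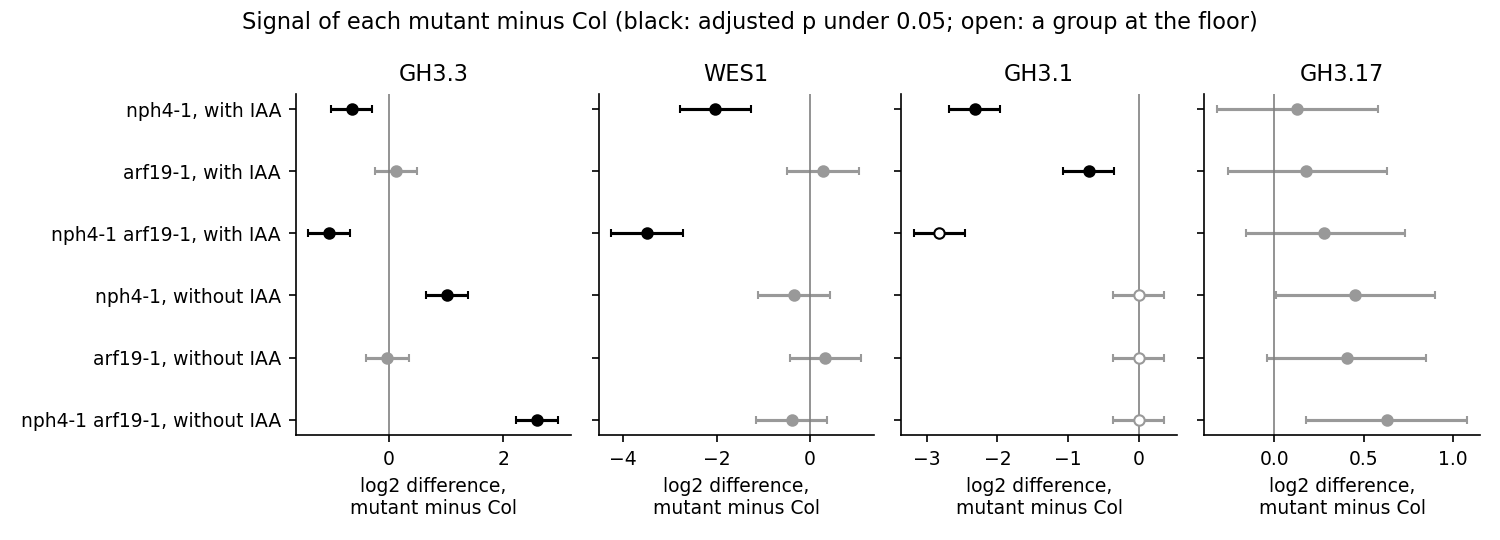
Difference in log2 signal between each mutant and Col (x axis, a scale of its own in each panel), with IAA (upper 3 rows) and without IAA (lower 3 rows), with 95% intervals from limma. Black marks an adjusted p under 0.05, grey marks the rest, and open circles mark comparisons with a group at the floor. GH3.3 lies on opposite sides of 0 with and without IAA in nph4-1 (-0.64 and 1.02) and in nph4-1 arf19-1 (-1.04 and 2.59).

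GH3.1 was recorded only after IAA. All 12 control arrays lay at the floor. In nph4-1 with IAA the signal was 5.64, 6.27 and 6.51, and in arf19-1 with IAA it was 7.63, 7.48 and 8.13. In the double mutant all 3 IAA arrays lay at the floor, and in Col they stood at 8.17, 8.78 and 8.44. The Col and arf19-1 arrays were thus clear of the floor, the nph4-1 arrays were at or just above it, and the double mutant showed no signal above it. Changes from the floor are lower bounds, since the control level is unknown. The 5 groups at the floor have no spread, enter the standard error of this gene and lower it. With IAA its SD was 0.45 in nph4-1, 0.34 in arf19-1 and 0.3 in Col. The intervals of GH3.1 may therefore be too narrow and its p-values too low.

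With IAA, GH3.1 rose at least 4.30-fold in arf19-1 (log2 2.1, SE 0.17, limma adjusted p = 1.2e-08) and at least 7.04-fold in Col (log2 2.82, adjusted p = 1e-10). The fitted change in nph4-1 was 0.50 (95% interval 0.14 to 0.86, adjusted p = 0.19). Here 1 array decided the call, because without nph4-1 IAA 1, the array at the floor, the value was 0.75 (adjusted p = 0.0064). Compared under IAA, GH3.1 was lower than in Col by -2.32 in nph4-1 (adjusted p = 4e-09) and by -0.71 in arf19-1 (adjusted p = 0.039), and it was at least 7.04-fold lower in the double mutant (adjusted p = 8.4e-11). Since nph4-1 IAA 1 lay at the floor, the nph4-1 gap may be larger than this value. With nph4-1 IAA 1 and Col control 3 left out the nph4-1 difference was -2.07 (adjusted p = 8.92e-09).

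The arf19-1 value of GH3.1 was the least firm of these. Its call ended in 11 of the 24 omissions of 1 array, with an adjusted p of up to 0.196, and when only the 6 arrays in question were fitted (0.0982). The log2 difference stayed between -0.9 and -0.56 over the omissions. The arrays of the 2 groups did not overlap, but the highest of arf19-1 (8.13) lay just below the lowest of Col (8.17). GH3.1 was the 1 member with a called difference between arf19-1 and Col with IAA, where 0.85% of tested probe sets were called lower. With the controls at the floor, no difference in the response of GH3.1 between genotypes can be given.

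GH3.17 was above the floor on every array, and its response to IAA did not pass the test in any genotype. Its signal was 8.93, 8.42 and 9.01 in nph4-1 with IAA, against 9.04, 8.81 and 9.17 in the controls. In the double mutant it was 8.62, 9.02 and 9.19 with IAA, against 8.84, 9.33 and 9.38 in the controls. In Col it was 8.8, 8.54 and 8.64 with IAA, against 8.27, 8.54 and 8.85 in the controls. Treated and control arrays overlapped in all of these, and in arf19-1, where they spanned 8.54 to 9.21 with IAA and 8.70 to 9.39 without. The log2 response was -0.22 in nph4-1, -0.11 in arf19-1, -0.24 in the double mutant and 0.11 in Col, each with an SE of 0.21. The 95% interval in Col, -0.34 to 0.55, holds no rise of the size seen for the other 3 genes, and none of its 18 contrasts passed. Set against the control array of the same number, the IAA array was lower in 3 of 3 pairs of each mutant. The fall was 0.11 to 0.39 in nph4-1, 0.01 to 0.17 in arf19-1 and 0.2 to 0.31 in the double mutant. In Col the differences of the pairs were 0.53, 0 and -0.21. With arrays of the same number as a block within genotype, the limma adjusted p was 0.335 in nph4-1, 0.669 in arf19-1, 0.725 in the double mutant and 0.605 in Col.

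Without IAA, GH3.17 was higher than in Col by 0.45 in nph4-1 (95% interval 0.01 to 0.9, limma adjusted p = 0.27), by 0.41 in arf19-1 (-0.04 to 0.85, adjusted p = 0.39) and by 0.63 in the double mutant (0.18 to 1.08, adjusted p = 0.056), none of which passed. The last lay near the threshold. It passed with the replicate number as a block (adjusted p = 0.0122), with a filter on dim probe sets (adjusted p = 0.0498), without Col control 3 (0.78, adjusted p = 0.0422), without double-mutant control 1 (0.80, adjusted p = 0.0264), and without arf19-1 control 3, arf19-1 IAA 3, nph4-1 IAA 1 or 2 or double-mutant IAA 1. The arrays of all 8 groups overlapped with those of the group next in order.

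Counted together, 2 of the 4 genes rose in nph4-1, 3 in arf19-1, 1 in the double mutant and 3 in Col. Of all tested probe sets 1.72%, 4.89%, 0.336% and 6.33% rose in these genotypes. None of the 4 genes was called lower, where 0.8%, 5.22%, 0.0825% and 6.52% of the tested probe sets were. The median log2 response of the 4, with the controls of GH3.1 set at the floor, was 1.50, 3.11, 0.54 and 3.5 in that order, where the median over all tested probe sets lay between -0.012 and 0.004. Of the 3 genes whose controls were above the floor, the response was smaller than in Col for 1 in nph4-1, for 0 in arf19-1 and for 2 in the double mutant by limma. Over all probe sets, a smaller response than that of Col was called for 1.67%, 0.203% and 2.58%. In arf19-1 the unadjusted p was under 0.05 for 0 of the 3. The double mutant's response was smaller than that of nph4-1 for 1 of the 3 and smaller than that of arf19-1 for 2, directions called for 0.203% and 2.24% of probe sets. These comparisons share arrays, and the 4 genes were chosen with results of these data known.

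The other GH3 genes with a probe set of their own added no signal. Of the 19 GH3 genes listed, 11 had such a probe set, and 7 of these, among them GH3.9, lay at the floor on all 24 arrays. The other 8 genes were not analysed here. Of 13 further genes listed for auxin inactivation and release, 3 were tested, AT1G14120, AT1G14130 and UGT74D1, the last a glycosyltransferase. With IAA all 3 were higher in the double mutant than in Col, by 1.71 (SE 0.23, limma adjusted p = 1.1e-05), 0.60 (SE 0.17, adjusted p = 0.016) and 0.65 (SE 0.20, adjusted p = 0.022), where 10.6% of probe sets were called higher. Their median in that comparison was 0.65, against 0.00 over all tested probe sets. Without IAA, AT1G14120 alone was higher, by 0.98 (adjusted p = 0.007), and it was also the 1 called higher in nph4-1 with IAA, by 1.27 (adjusted p = 0.00054), where 8.35% of probe sets were. Omitting nph4-1 IAA 1 and Col control 3, these values of AT1G14120 were 1.09 and 0.93, AT1G14130 was also higher in the double mutant without IAA (0.56, adjusted p = 0.00548) and UGT74D1 also in nph4-1 with IAA (0.43, adjusted p = 0.0451). With that omission AT1G14120 was also called higher in nph4-1 without IAA (0.80, adjusted p = 0.0418).

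The changes of AT1G14120 called with IAA ran opposite to those of GH3.3, WES1 and GH3.1. Its signal was 8.07, 7.98 and 7.92 in the double mutant with IAA, against 6.02, 6.67 and 6.15 in Col with IAA, with no overlap. Its response was -0.78 in arf19-1 (SE 0.23, limma adjusted p = 0.033), the 1 called response of the 3 with all arrays kept, and -0.65 in Col (adjusted p = 0.074). Without nph4-1 IAA 1 and Col control 3 the response of UGT74D1 in Col was also called (-0.45, adjusted p = 0.0376). The AT1G14120 response of the double mutant minus that of arf19-1 was then called too (0.86, adjusted p = 0.0482). Of the 11 auxin synthesis genes listed, YUC6, an enzyme that makes IAA, was the 1 tested, and it fell by 0.85 in arf19-1 (SE 0.17, adjusted p = 0.0011) and by 0.66 in Col (adjusted p = 0.0086). With IAA its signal was 5.69 to 5.76 in Col and 5.76 to 5.94 in arf19-1, close to the floor, which limits these falls. Col control 1 was at 5.82. Its response was not called in nph4-1 (-0.27) or the double mutant (-0.35). With IAA, YUC6 was higher than in Col by 0.68 in the double mutant (adjusted p = 0.0052). In nph4-1 this was 0.41, and was called without nph4-1 IAA 1 and Col control 3 (0.56, adjusted p = 0.0272). Of the 11 transport genes listed WAG2, a kinase that directs auxin carriers, was the 1 tested, and it rose by 1.79 in arf19-1 (SE 0.20, adjusted p = 2e-06) and by 1.33 in Col (adjusted p = 7e-05). Its response was not called in nph4-1 (0.30) or the double mutant (0.24). With IAA, WAG2 was lower than in Col by -1.34 in the double mutant (adjusted p = 4.6e-05). In nph4-1 this difference was -1.04 (adjusted p = 0.0011), and -0.72 without nph4-1 IAA 1 and Col control 3 (adjusted p = 0.00488). Against Col the WAG2 response was smaller in the double mutant (-1.09, adjusted p = 0.032). The nph4-1 difference in response (-1.03) did not pass. The 4 receptor genes listed were not analysed here.

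The pattern of the members over the 8 group means was compared with that of 576 other probe sets with 1 gene and a range of group means of at least 1. These correlations are descriptions over 8 points that share the effect of IAA. The genes most like GH3.3 were GH9B13, a glycosyl hydrolase (Pearson r = 0.98), AT1G03820 (0.961), the expansin EXPA4 (0.947), AT5G18470 (0.947) and cwINV6, a fructan exohydrolase (0.944). The control means in the double mutant and in Col were 10.24 and 9.49 for EXPA4, 8.79 and 7.75 for AT1G03820 and 8.06 and 7.73 for GH9B13, differences in the direction of GH3.3 that were not tested for these genes. The genes were picked by means that include these controls, so the choice itself favours that direction. The genes most like WES1 were AT1G33790 (0.994), AT5G57910 (0.989), AT3G26760 (0.987), AT2G36220 (0.985) and AT5G64250 (0.983). For GH3.1 they were AT4G35200 (0.999), AT4G37295 (0.998), RTE1 of the ethylene response (0.996), AT3G54000 (0.993) and the auxin response repressor IAA29 (0.993). Among the members WES1 and GH3.1 were most alike (r = 0.94), with 0.8 for GH3.3 and WES1 and 0.7 for GH3.3 and GH3.1.

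**Figure D4:**
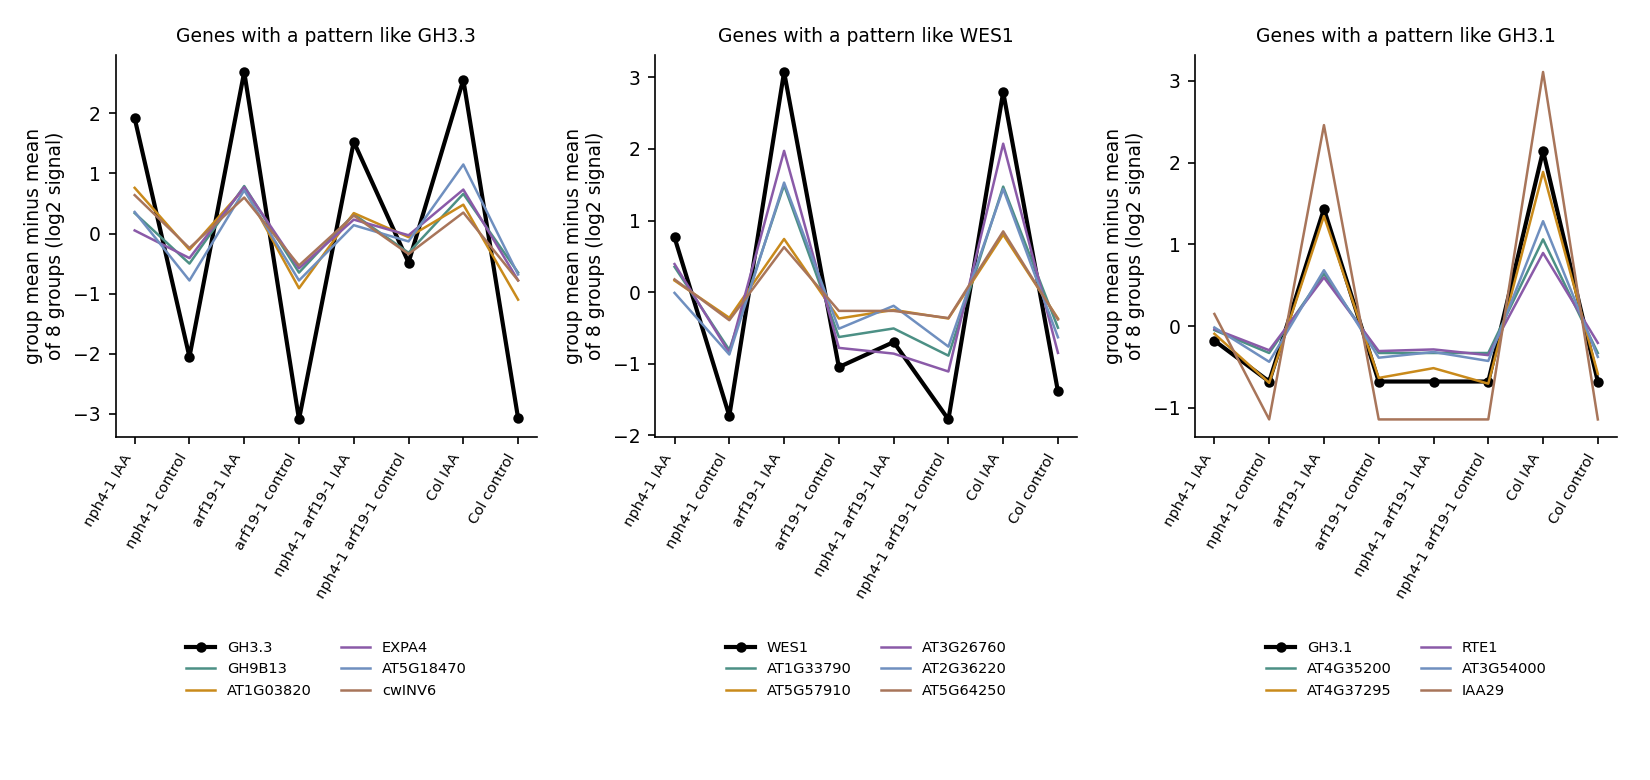
Group means of log2 signal minus the mean over the 8 groups (y axis) for GH3.3, WES1 and GH3.1 (black) and the 5 genes most like each (colours), over the 8 groups of genotype and treatment (x axis). Lines only join the groups for the eye. In the GH3.3 panel the control of nph4-1 arf19-1 stands above the other controls for GH3.3 and for genes such as EXPA4, which had 10.24 there and 9.49 in Col. The genes were picked by likeness over these same means.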

How the data were processed

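Total RNA of 24 seedling samples was measured on oligonucleotide arrays. The deposited values are log2 signal, 1 per probe set and array, which the authors cut at a floor of 50 in linear units, as the values show. The summary and scaling method was not given in the sources used here, and no scaling was added. Precision is limited by 3 arrays per group.

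Of 22810 probe sets, 64 controls and 6989 at the floor on all arrays were left out, and 15757 were tested. Per the array annotation 13513 probe sets have 1 gene, 503 have several and 8794 are unnamed here, and 13436 of the 13513 were found in the RefSeq table (assembly TAIR10.1), used for names only. Groups came from sample titles. One limma model (version 3.58.1, under R 4.3.3; lmFit, and moderated errors with an intensity trend and robust priors) took all 24 arrays and gave each of the 8 groups a mean, with 18 two-sided contrasts, each adjusted by Benjamini-Hochberg over all tested probe sets at 0.05, and was tested on simulated data. Errors of log2 differences are standard errors of this fit, and the error of a share of the response in Col is by the delta method.

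The named genes are the members, listed auxin genes called in a contrast (at most 6 per list) and the 5 genes most like each member with a range of group means of at least 1. Members and lists were chosen with earlier results of these data known. The deviations of arrays with the same number from their group means correlated at over 0.1 in 10 of 12 pairs of IAA and control (from -0.098 to 0.5), including all 3 pairs of nph4-1 and of the double mutant. The labels do not say what the number marks. Alternatives were quantile normalization, 2 other filters, plain eBayes, a fit of the arrays compared, a replicate block and leaving out each array. A replicate block within genotype and the omission of nph4-1 IAA 1 and Col control 3 together were chosen after seeing the data.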

Additional observations from a re-analysis of the deposited data

Results flagged for a closer look

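The IAA response differed between genotypes, by a test of the difference itself in limma, in 7 comparisons of GH3.3 and WES1. For GH3.3 the log2 response was smaller by -1.66 in nph4-1 and by -3.63 in the double mutant than in Col. It was smaller in the double mutant by -1.96 than in nph4-1 and by -3.78 than in arf19-1, and its non-additivity was -2.11. For WES1 the double mutant responded less than Col, by -3.11, and less than arf19-1, by -3.05. GH3.1 has no such value, because its controls lay at the floor. Groups of 3 arrays are too small for the check on single outlying arrays.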

How the results depend on the processing

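Over 8 alternatives and the omission of each of 24 arrays, 52 of 60 member comparisons kept their side of the threshold and no called one turned direction. In a fit of only the arrays compared, GH3.3 in nph4-1 against Col without IAA (1.02) and the WES1 response in nph4-1 (2.5) did not pass. GH3.17 in the double mutant against Col without IAA passed with the filter on dim probe sets (0.63, adjusted p = 0.0498), with the replicate number as a block (0.63, adjusted p = 0.0122) and without nph4-1 IAA 1 and Col control 3 (0.78), and ranged from 0.49 to 0.8 over single omissions. That omission of both arrays also gave a call to GH3.1 in nph4-1 (0.75, and 0.31 to 0.75 over single omissions). With the replicate block within genotype the WES1 response of nph4-1 minus Col passed at -1.68, with -2.07 to -1.16 over single omissions. The replicate block left 59 of 60 member calls as they were, and the block within genotype, which was run for the responses and their differences only, left 32 of 33. Adjusted over all probe sets but the controls, GH3.1 in arf19-1 against Col with IAA did not pass (adjusted p = 0.0557). GH3.1 in the double mutant could not be fitted on its own 6 arrays, all at the floor, differences in its response were left out, and non-additivity uses all arrays in any case. Likeness over 24 arrays instead of 8 group means shared 2 of 5 genes for GH3.3 and 2 of 5 for GH3.1.

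Counts of called probe sets moved by over 1.5 times as follows, and the cause was not tested. The fits of the arrays compared hold fewer arrays, and their counts moved in both directions. In those fits the IAA response counts were 153 in nph4-1 (397 in the fit of all arrays) and 893 in Col (2026). Differences in response had 214 for nph4-1 minus Col (446), 19 for arf19-1 minus Col (41) and 864 for the double mutant minus arf19-1 (562). Levels against Col without IAA had 23 in nph4-1 (359), 1 in arf19-1 (129) and 759 in the double mutant (2096), and nph4-1 with IAA had 1030 (2211). With the replicate block arf19-1 against Col had 379 with IAA (246) and 201 without (129). The dim filter gave 27 for arf19-1 minus Col in response, and leaving out both arrays gave 464 for arf19-1 against Col with IAA. Over single omissions the counts ran from 258 to 445 for the response in nph4-1 and 33 to 85 in the double mutant (66). Without IAA they ran from 111 to 1353 for nph4-1, 28 to 924 for arf19-1 and 1169 to 3581 for the double mutant against Col. They ran from 181 to 462 for the double mutant against nph4-1 (386) and 636 to 1207 against arf19-1 (1048), and from 120 to 332 for arf19-1 against Col with IAA. Signals at the floor and near the top of the arrays limit what can be compared.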
